A study of Homo sapiens with 24 samples.

Results

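The data described here are the messenger RNA response of HCC4006 control cells to combined EGFR and MEK inhibition for 24 hours. HCC4006 is a human EGFR-mutant non-small cell lung cancer line. The series holds 24 libraries from HCC4006 and a second EGFR-mutant line, PC9, each as control cells (CTRL) or YAP1 knockout cells (YAP1 KO), with 3 libraries per group. The comparison uses 6 of them. The CTRL cells received either DMSO, the solvent, or OT, which is 100 nM of the EGFR inhibitor osimertinib together with 30 nM of the MEK inhibitor trametinib. All groups were plated in dishes, treated the next day and lysed after 24 hours. How the CTRL and YAP1 KO cells were made, and whether they are single clones, the labels do not say. The 3 libraries of a group are separate dishes of the line, so p-values measure the spread between dishes, which may be technical. Of 25365 gene rows, 12646 had an FPKM (fragments per kilobase of transcript, scaled to mapped fragments) of 1 or more in at least 3 of the 6 libraries, and these make up the comparison. Nearest to that limit were MMP10, for which the value deciding the rule was 1.00028, and PPP1R14D, left out at 0.999499. Among the rows kept, 1075 reached 1 FPKM in only 1 of the 2 groups, so their presence in the comparison already depended on a difference.

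EGFR is a growth factor receptor whose mutant form signals without ligand in these tumours. It feeds the RAS, RAF, MEK and ERK kinase cascade and the PI3K and AKT pathway. ERK switches on its own inhibitors (the dual-specificity phosphatases, Sproutys and SPREDs), growth factor genes and the D cyclins that open the way to DNA replication. AKT holds FOXO transcription factors outside the nucleus. Osimertinib blocks the receptor and trametinib blocks MEK, so genes that depend on ERK are commonly used as a readout of such treatment. YAP1 is a transcriptional coactivator of the Hippo pathway that works through TEAD factors.

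The label of the line was checked against marker genes. NKX2-1, the transcription factor of lung epithelium, measured 21.7, 20.4 and 21.9 FPKM in the DMSO libraries and 50.8, 56.5 and 54 in the OT libraries. The keratins KRT8 and KRT18, CDH1 and EPCAM were present in every library, while SFTPB stayed below the filter. Summed over 10 fibroblast genes the level was 7.96 to 8.28 FPKM with DMSO and 24.1 to 26.2 with OT, and 6 of the 10 did not reach the filter. The 12 immune cell genes summed to 23.5 to 26.4 with DMSO and 87 to 89.5 with OT, and CD68, a lysosomal protein, made up 22, 23.7 and 21.4 FPKM of the former and 81.5, 83.4 and 83.6 of the latter. Of the 12, 9 stayed below the filter, and CD3D and MS4A1 were listed at 0 in all 24 libraries. Of 7 endothelial genes only KDR (VEGFR2) passed the filter, with 0.176, 0.193 and 0.214 FPKM with DMSO and 5.81, 5.02 and 4.45 with OT, and ERG was listed at 0 in all 24. An exact 0 in every library can be a missing estimate and is not read as a level. Of the 4 fibroblast genes that passed the filter 3 rose, COL1A1 and COL1A2 among them. THY1 was lower (-0.25 ± 0.08, adjusted p = 0.012), a call that was lost under the same FPKM sum (-0.10) and with a pseudocount of 0.1 (-0.36, adjusted p = 0.19), while PDGFRA, PDGFRB, DCN, LUM and FAP stayed below the filter. Their part in any result was not tested.

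Library sums of FPKM were 627718 to 660459 with DMSO and 507120 to 574160 with OT. The first OT library stood apart, with a sum of 507120 and a relative depth of 1.49. The remaining OT libraries had a relative depth of 0.992 to 1.09 and the DMSO libraries 1 to 1.02. Relative depth is the most common ratio of FPKM in the first DMSO library to FPKM in the given library, among rows low in both. Rows of MIR1244 took 5.82% to 8.13% of the sum with DMSO and 2.97% to 3.81% with OT. Within a group, libraries correlated at r of 0.985 to 0.991 on the log2(FPKM + 1) scale.

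OT moved most of the measured transcriptome. With limma on log2(FPKM + 1), fitted over the 12 HCC4006 libraries and adjusted over all 12646 rows by Benjamini-Hochberg, 5635 rows (44.6%) were higher and 4754 (37.6%) lower at an adjusted p under 0.05, and 82.2% were called in one direction or the other. Among these, 1551 (12.3%) were at least 2-fold higher and 1270 (10.0%) at least 2-fold lower. The 3 OT values lay above the 3 DMSO values without overlap in 5568 rows (44.0%) and below them in 4706 (37.2%). The median change was 0.07 and the median residual SD 0.0888 on the log2 scale, and differences on this scale understate those of low genes. In what follows, a change is OT minus DMSO on the log2(FPKM + 1) scale, ± is its standard error in the fit, and n is 3 libraries per group. Without the first OT library 5665 rows were higher and 4769 lower. Of the called rows, 54.2% were higher. If each library is scaled to the same FPKM sum, the median change shifts up by 0.19 and that share becomes 65.6%, with 6789 rows higher and 3553 lower. Counts of gene lists are therefore given with their range over 3 other scalings, and should be read against the 44.6% and 37.6% of all rows.

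**Figure D1:**
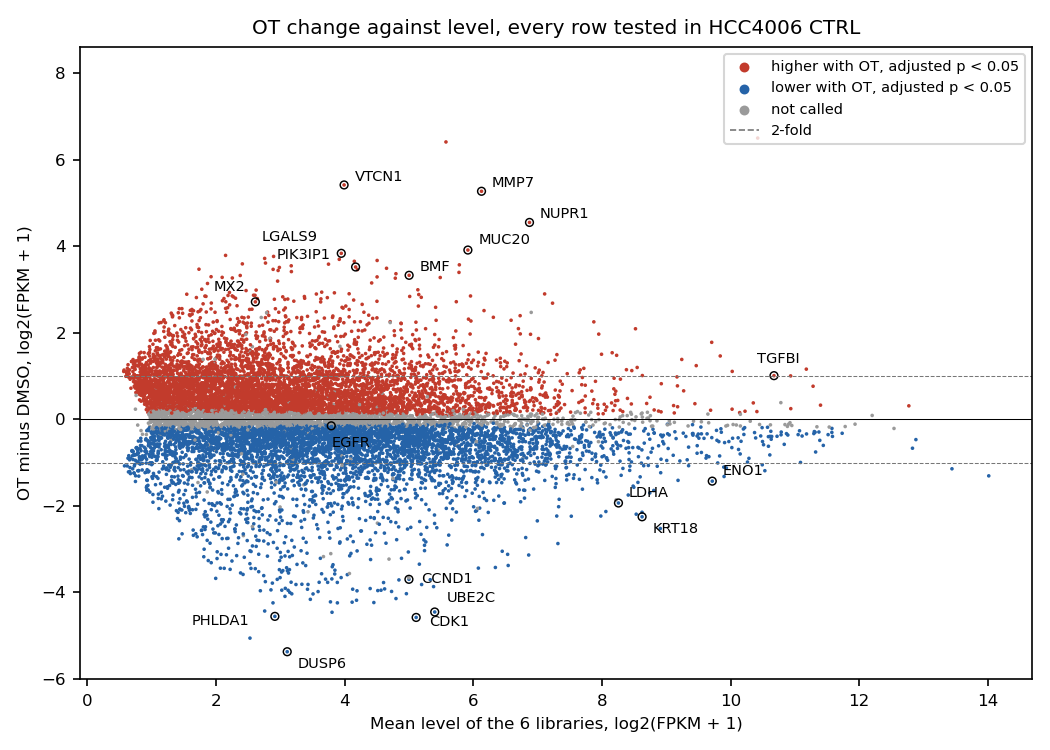
Each point is 1 of the 12646 gene rows: the horizontal axis is the mean level of the 6 libraries and the vertical axis OT minus DMSO, both on the log2(FPKM + 1) scale. Red rows were higher and blue rows lower with OT at an adjusted p under 0.05, and dashed lines mark 2-fold. VTCN1 (5.41) and MMP7 (5.27) lie highest among the labelled genes and DUSP6 (-5.37) lowest. The unlabelled points above them are short RNA rows.

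The largest rises, leaving out short RNAs, were those of VTCN1 and MMP7. VTCN1, the immune checkpoint ligand B7-H4, measured 1.34, 1.2 and 1.81 FPKM in the DMSO libraries and 96.7, 107 and 105 in the OT libraries, a difference of 5.41 ± 0.09 (adjusted p = 3.5e-14). MMP7, a small secreted metalloprotease of glandular epithelium, measured 9.31, 10.9 and 10.7 FPKM in the DMSO libraries and 384, 440.4 and 480.3 in the OT libraries, a difference of 5.27 ± 0.08 (adjusted p = 3.5e-14). No OT value of either gene came near a DMSO value. NUPR1, a stress-induced chromatin protein, went from 23.4, 25.5 and 21 FPKM to 475, 613 and 623. The other genes of the 10 highest were the transmembrane mucin MUC20 (3.91), the galectin LGALS9 (3.83), the interferon-induced TRIM22 (3.79), FAM83E (3.76), the secreted protease inhibitor SLPI (3.72), SECTM1 (3.7) and SELENBP1 (3.67).

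The 10 largest falls, again without short RNAs, were those of DUSP6 (-5.37), CDK1 (-4.58), PHLDA1 (-4.55), RRM2 (-4.46), UBE2C (-4.45), ANGPTL4 (-4.43), HYPK (-4.24), TOP2A (-4.24), ANLN (-4.23) and TRIP13 (-4.22). CDK1, RRM2, UBE2C, TOP2A, ANLN and TRIP13 act in DNA synthesis or cell division. HYPK was the least even of them, with 36.8, 29.8 and 27.4 FPKM with DMSO and 0.106, 0.134 and 2.91 with OT. It shares readthrough transcripts with SERF2, so its assignment of reads is uncertain. ANGPTL4, a secreted lipase inhibitor, measured 30.1, 32.3 and 28.8 FPKM in the DMSO libraries and 0.96, 0.295 and 0.216 in the OT libraries, and the first OT library was the highest of the 3.

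The feedback arm of the ERK pathway held the largest fall of any named gene. DUSP6, the phosphatase that acts on ERK in the cytoplasm, measured 52.7, 55.2 and 55.1 FPKM in the DMSO libraries and 0.86, 0.222 and 0.0575 in the OT libraries, so the OT mean was 0.699% of the DMSO mean and the difference was -5.37 ± 0.15 (adjusted p = 2.2e-12). The first OT library kept more DUSP6 than the other two, and all 3 lay far below DMSO. DUSP4, a nuclear ERK phosphatase, measured 23.1, 21.7 and 22.2 FPKM with DMSO and 1.22, 0.826 and 0.727 with OT and changed by -3.61 ± 0.08. DUSP5, also nuclear, changed by -2.31 ± 0.08. DUSP1, a phosphatase that acts mainly on the stress kinases JNK and p38, went the other way, from 6.51, 6.14 and 4.96 FPKM to 23.7, 24 and 23.4, a rise of 1.85 ± 0.07 (adjusted p = 5.2e-11). In all, 5 of 9 tested members rose and 4 fell (the same counts under the 3 other scalings), with a median change of 0.53, against 0.07 for all rows. Among all rows 44.6% were higher and 37.6% lower.

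All 5 tested Sprouty and SPRED genes, which code for inhibitors of RAS activation, fell (the same counts under the 3 other scalings), with a median of -1.93. SPRY4 measured 3.12, 2.82 and 2.86 FPKM in the DMSO libraries and 0.0688, 0.0352 and 0.0258 in the OT libraries, leaving 1.47% of the DMSO mean. SPRY2 measured 12.1, 12.4 and 12.7 FPKM with DMSO and 1.28, 1.43 and 0.771 with OT, a difference of -2.65 ± 0.10 (adjusted p = 4.1e-11). SPRED2 changed by -2.54 ± 0.11 and SPRED1 by -1.93 ± 0.11. Every OT value of SPRY4, SPRY2, SPRED2 and SPRED1 lay below every DMSO value, as it did in 37.2% of all rows. SPRY1, SPRY4 and SPRED2 reached 1 FPKM with DMSO only, so their presence in the count already depended on a difference. SPRY3 and SPRED3 stayed below the filter. SPRY3 measured 0.0996, 0.0739 and 0.132 FPKM with DMSO and 0.417, 0.28 and 0.339 with OT. SPRED3 went the other way, from 0.434, 0.359 and 0.436 to 0.204, 0.266 and 0.127 FPKM.

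The ETS transcription factors were split. ETV4, an ETS factor of the PEA3 group, measured 9.86, 10.7 and 10.6 FPKM in the DMSO libraries and 0.447, 0.0859 and 0.063 in the OT libraries. Its relatives ETV5 and ETV1 measured 0.335, 0.0856 and 0.0942 and 0.0677, 0.0189 and 0 FPKM with OT, from 9.66, 9.26 and 9.66 and 5.62, 5.54 and 6.83 with DMSO. The 3 genes changed by -3.26 ± 0.10, -3.17 ± 0.08 and -2.76 ± 0.08. ELF3, an ETS factor specific to epithelia, rose from 58.5, 58.2 and 60.5 to 228, 243 and 229 FPKM, a difference of 1.96 ± 0.04 (adjusted p = 2.5e-13). Over the ETS list 4 of 10 tested members rose and 4 fell (4 higher and 3 to 5 lower under the 3 other scalings). Those shares are near the 44.6% higher and 37.6% lower of all rows.

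Of the AP-1 subunits, FOSL1, a classical ERK target, measured 25.5, 25.9 and 24.7 FPKM in the DMSO libraries and 1.46, 1.07 and 1.63 in the OT libraries and fell by 3.47 ± 0.09 (adjusted p = 1.8e-12). ATF3, a stress-induced subunit, rose from 2.55, 2.63 and 1.88 to 16.3, 18.6 and 17.7 FPKM. FOSL2 changed by 1.55 ± 0.14 and JUNB by 0.75 ± 0.06, and the list's median was 0.12. Among immediate early genes, EGR1 fell from 3.05, 3.51 and 3.71 FPKM to 0.153, 0 and 0.0209. PHLDA1 measured 35.5, 33.6 and 37.5 FPKM with DMSO and 0.857, 0.361 and 0.493 with OT and its imprinted relative PHLDA2 117, 116 and 114 FPKM with DMSO and 7.14, 4.29 and 5.75 with OT. ZFP36, which destabilises cytokine messages, rose by 1.05 ± 0.08. In that list 3 of 11 tested members rose and 5 fell (3 to 6 higher and 5 lower under the 3 other scalings).

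**Figure D2:**
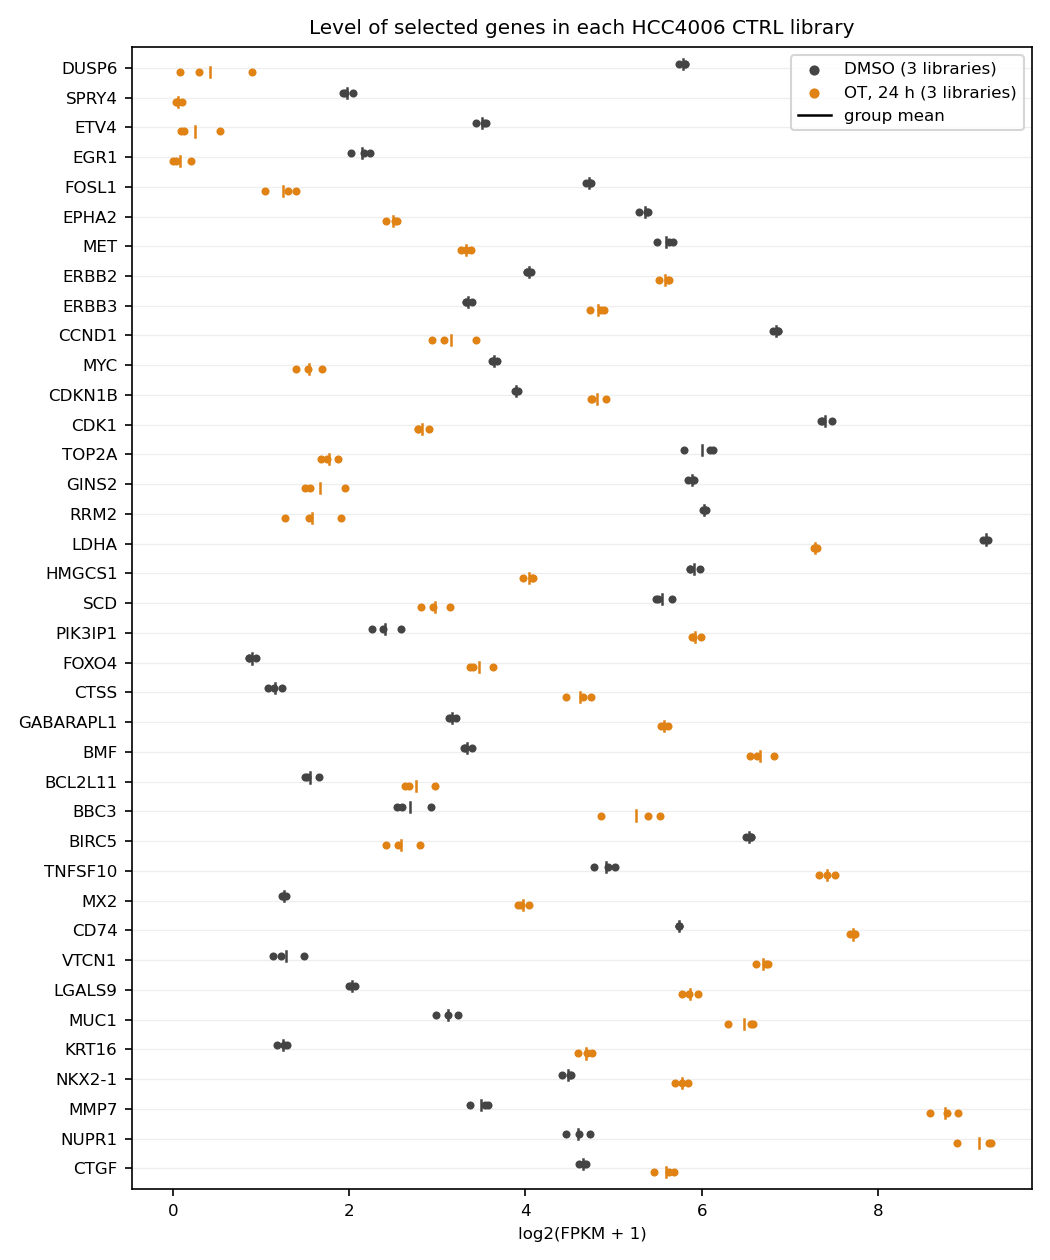
Level of 38 genes in each of the 6 HCC4006 CTRL libraries, on the log2(FPKM + 1) scale, with DMSO in grey, OT in orange and the group mean as a short bar. The 2 groups do not overlap for any gene drawn. Over all rows, OT lay above DMSO without overlap in 44.0% and below in 37.2%. ERK feedback and cell division genes lie far to the left with OT, and VTCN1, MMP7, NUPR1 and MUC1 far to the right.

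EGFR itself was not called. It measured 14, 13 and 13.7 FPKM in the DMSO libraries and 18.4, 10.2 and 9.46 in the OT libraries, a difference of -0.15 ± 0.17 (adjusted p = 0.41), and the groups overlapped because the first OT library was the highest of all 6 and the other two the lowest. Without the first OT library the difference is -0.43 (adjusted p = 1.1e-05), so 1 library decides that call. ERBB2, the receptor that partners with the other family members, measured 15.2, 15.2 and 15.7 FPKM in the DMSO libraries and 48.3, 48.4 and 44.6 in the OT libraries, a rise of 1.55 ± 0.05 (adjusted p = 4.7e-12). ERBB3, the kinase-poor partner that couples to PI3K, measured 9.05, 9.02 and 9.5 FPKM with DMSO and 28.6, 28 and 25.6 with OT, a rise of 1.48 ± 0.05 (adjusted p = 1.6e-11). ERRFI1 (MIG6), a cytoplasmic inhibitor of EGFR, fell from 52.7, 51.3 and 52.4 to 10.4, 9.8 and 9.98 FPKM, a difference of -2.27 ± 0.04. The list of receptors and inhibitors had 4 of 9 higher and 3 lower (4 to 5 higher and 2 to 3 lower under the 3 other scalings). Those shares are near the 44.6% higher and 37.6% lower of all rows.

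The EGF family ligands AREG, TGFA and NRG1 fell. AREG measured 4.29, 3.78 and 4.66 FPKM in the DMSO libraries and 0.286, 0.494 and 0.343 in the OT libraries, TGFA changed by -1.32 ± 0.06 and NRG1, the ERBB3 ligand, by -1.09 ± 0.08. BTC rose from 0.381, 0.691 and 0.749 to 2.01, 1.99 and 1.81 FPKM, a low level in both groups. Among other receptor tyrosine kinases, EPHA2 measured 40.6, 41 and 38 FPKM in the DMSO libraries and 4.74, 4.32 and 4.83 in the OT libraries, a change of -2.86 ± 0.05 (adjusted p = 1.1e-13). MET, the hepatocyte growth factor receptor, measured 48.5, 43.9 and 49.9 FPKM with DMSO and 9.39, 8.62 and 9.02 with OT, a change of -2.27 ± 0.06 (adjusted p = 9.1e-13). IGF1R rose from 2.74, 2.57 and 3.0 to 12.5, 9.9 and 9.26 FPKM (1.61 ± 0.09) and FGFR2 from 2.73, 2.22 and 2.93 to 7.44, 8.34 and 7.88 (1.3 ± 0.08). No OT value of these 4 receptors overlapped DMSO, while OT lay above DMSO without overlap in 44.0% of all rows and below in 37.2%. Over that list 3 of 12 tested members rose and 6 fell (3 higher and 6 to 9 lower under the 3 other scalings).

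The cell cycle genes fell as a block. All 30 replication genes, all 30 mitosis genes and all 16 repair genes tested were at least 2-fold lower, and all were called lower under the 3 other scalings, while 10.0% of all rows fell that far. The medians were -2.6, -3.71 and -2.07. In bulk RNA, fewer dividing cells and less of these messages per cell cannot be told apart. CDK1, the kinase that drives mitosis, measured 164, 162 and 178 FPKM in the DMSO libraries and 6.51, 5.85 and 5.89 in the OT libraries, so 3.62% of the DMSO mean was left, a difference of -4.58 ± 0.06 (adjusted p = 1.8e-14). UBE2C, the ubiquitin-conjugating enzyme of the anaphase-promoting complex, measured 188, 213 and 190.0 FPKM with DMSO and 8.9, 7.66 and 7.59 with OT. TOP2A, the topoisomerase that untangles sister chromatids, measured 67.5, 54.5 and 68.9 FPKM with DMSO and 2.66, 2.21 and 2.36 with OT. The proliferation antigen MKI67 changed by -2.93 ± 0.09 and the smallest fall on the mitosis list was that of CDC25B (-1.07 ± 0.06).

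Of the replication genes, GINS2, a subunit of the replicative helicase, measured 59.3, 58.7 and 56.6 FPKM in the DMSO libraries and 2.87, 1.83 and 1.95 in the OT libraries, a difference of -4.22 ± 0.10 (adjusted p = 7.4e-13). CDC6, which loads the helicase at origins, measured 32.9, 34.1 and 32.5 FPKM with DMSO and 1.42, 1.07 and 1.16 with OT, and CDC45, which activates it, 24.4, 24.9 and 24 FPKM with DMSO and 0.873, 0.647 and 0.415 with OT. PCNA, the sliding clamp, kept a higher level, with 49.7, 59 and 66.3 FPKM left of 421, 431 and 437. The smallest fall on the list was that of POLE, the catalytic subunit of the leading strand polymerase (-1.33 ± 0.10). Of the repair genes, EXO1, a nuclease, and FANCI, of the Fanconi anaemia pathway, changed by -3.19 and -3.05.

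Promoter sequences of a few of these genes are shown so that the motif matches counted in the lists can be read in place. The windows are from RefSeq on GRCh38.p14, from 250 bases before to 50 after each annotated start, and some genes have several. Stretches around the matches, before the start, are printed 5′ to 3′ on the gene's strand. The E2F site was searched as TTTGGCGC, TTTCCCGC or TTTCGCGC on both strands, and was present in 17 of 34 windows (50%, 17 of 27 genes), against 2.74% of all 35116 windows. Capitals mark matches, of which those in MCM6 overlap in pairs.
MCM6 (chr2:135876497-135876620, minus strand): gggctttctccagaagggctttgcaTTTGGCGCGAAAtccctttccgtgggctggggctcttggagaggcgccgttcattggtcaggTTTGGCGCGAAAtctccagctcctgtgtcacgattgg
PCNA (chr20:5126649-5126706, minus strand): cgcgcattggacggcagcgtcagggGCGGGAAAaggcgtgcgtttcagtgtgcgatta
GINS2 (chr16:85688955-85689010, minus strand): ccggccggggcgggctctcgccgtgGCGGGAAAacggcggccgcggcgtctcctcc
MCM6, a subunit of the helicase ring, changed by -2.83 ± 0.05, PCNA by -2.87 ± 0.09 and GINS2 by -4.22 ± 0.10. For the mitosis list the cell cycle homology region (CHR), TTTGAA, bound by the DREAM complex, was searched on both strands. It was in 17 of 32 windows (53.1%, 15 of 24 genes), against 15.2% of all 35116 windows. CCAAT, on either strand, was in 24 of 32 windows (75%, 20 of 24 genes), against 34.6% of all 35116 windows. These windows again show the match in capitals.
PLK1 (chr16:23678835-23678888, plus strand): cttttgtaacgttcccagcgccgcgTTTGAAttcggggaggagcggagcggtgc
CCNB2 (chr15:59105092-59105145, plus strand): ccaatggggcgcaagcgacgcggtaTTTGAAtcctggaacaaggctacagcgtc
MKI67 (chr10:128126424-128126495, minus strand): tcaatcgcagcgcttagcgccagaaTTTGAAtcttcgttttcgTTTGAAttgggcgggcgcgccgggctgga
PLK1, a mitotic kinase, measured 125, 128 and 121 FPKM with DMSO and 7.83, 6.8 and 5.64 with OT. CCNB2, a partner of CDK1, measured 105, 109 and 108 FPKM with DMSO and 12.1, 12.1 and 12.5 with OT. In all 3 promoters a TTTGAA stretch begins 29 bases before the annotated start, and MKI67, whose level went from 16.7, 14.2 and 17.4 to 1.46, 1.22 and 1.03 FPKM, has another further upstream. These 3 were picked from the 15 genes with a match, and positions in the others are not given. Other lists gave other counts. For the FOXO list, the site TGTTTAC was in 4 of 43 windows (9.3%, 4 of 20 genes), against 3.42% of all 35116 windows. In the cholesterol list, the sterol element TCACNCCAC was in 1 of 23 windows (4.35%, 1 of 18 genes), against 1.13% of all 35116 windows, and CCAAT was in 18 of 23 windows (78.3%, 16 of 18 genes), against 34.6% of all 35116 windows. A match is a description of the letters and not evidence of binding in these cells.

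Upstream of replication, the G1 genes fell too. CCND1 (cyclin D1), the D cyclin that answers ERK, measured 116, 111 and 115 FPKM in the DMSO libraries and 9.84, 7.42 and 6.68 in the OT libraries, a change of -3.7 ± 0.09 (adjusted p = 8.7e-13). CCNE2 changed by -2.48 ± 0.08, CDK2 by -2.0 ± 0.06 and the phosphatase CDC25A by -1.94 ± 0.07. CDK6 rose, from 2.03, 2.0 and 2.2 to 3.62, 2.79 and 3.26 FPKM, the single G1 gene of 8 to do so (the same counts under the 3 other scalings). E2F1 fell from 17.9, 17.3 and 17.8 to 1.49, 1.27 and 0.76 FPKM, and 9 of 10 E2F and DP genes fell (the same counts under the 3 other scalings), TFDP2 being higher (0.77 ± 0.05).

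The CDK inhibitors were split. CDKN1B (p27), a FOXO target that restrains CDK2, measured 14, 13.8 and 13.7 FPKM in the DMSO libraries and 26.1, 25.9 and 29.1 in the OT libraries, a rise of 0.91 ± 0.06 (adjusted p = 8.7e-09). CDKN1C (p57) rose from 0.429, 0.778 and 0.962 to 5.25, 5.87 and 6.5 FPKM. In the list of inhibitors and pocket proteins 4 of 8 rose and 4 fell (the same counts under the 3 other scalings), against 44.6% higher and 37.6% lower of all rows. CDKN1A (p21) measured 45, 50.1 and 50.2 FPKM with DMSO and 64.5, 73.8 and 117 with OT, a rise of 0.76 ± 0.19 (adjusted p = 0.0022), with the third OT library well above the other two. CDKN2C (p18) and CDKN2D (p19), inhibitors of CDK4 and CDK6, changed by -1.72 ± 0.08 and -1.17 ± 0.08. The antiproliferative BTG1 (1.33 ± 0.06) and BTG2 (1.85 ± 0.08) rose, as did DYRK1B (1.93 ± 0.07), a kinase associated with quiescence. In that list 8 of 11 tested members rose and 2 fell (8 to 9 higher and 1 to 2 lower under the 3 other scalings).

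MYC measured 11.7, 11.4 and 11.3 FPKM in the DMSO libraries and 2.23, 1.62 and 1.9 in the OT libraries, a change of -2.1 ± 0.09 (adjusted p = 1.2e-10). MXD4, a MAX partner that opposes MYC, rose from 7.43, 6.44 and 7.63 to 40.3, 37.7 and 35.6 FPKM, and MXI1 by 1.36 ± 0.06, while MXD3 fell by 2.53 ± 0.10. In the list of MYC, MAX and MXD genes 7 of 11 tested members rose and 4 fell (the same counts under the 3 other scalings), with a median of 0.48. All 30 ribosome biogenesis genes fell (0 higher and 29 to 30 lower under the 3 other scalings), 19 of them at least 2-fold, with a median of -1.32. LYAR, a nucleolar factor, measured 48.3, 48.4 and 50.6 FPKM with DMSO and 4.63, 4.62 and 5.33 with OT, TCOF1 changed by -2.51 ± 0.05 and DKC1, the pseudouridine synthase of small nucleolar RNPs, by -2.11 ± 0.04. The E-box CACGTG, the letters that MYC and related factors recognise, was in 13 of 29 windows (44.8%, 13 of 24 genes), against 7.26% of all 35116 windows. Nucleotide synthesis followed, with 19 of 23 genes lower (1 to 3 higher and 19 to 21 lower under the 3 other scalings). RRM2, the ribonucleotide reductase subunit of S phase, measured 64.4, 64.9 and 63.8 FPKM in the DMSO libraries and 2.74, 1.92 and 1.42 in the OT libraries, and TYMS, thymidylate synthase, 67.9, 68.8 and 64.2 FPKM with DMSO and 3.37, 3.64 and 3.42 with OT. MTHFD2, a mitochondrial folate enzyme, rose slightly (0.22 ± 0.05, adjusted p = 0.0011), the single riser of that list.

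Cytosolic tRNA synthetases were mixed: 9 of 19 tested members rose and 10 fell (8 to 9 higher and 9 to 10 lower under the 3 other scalings). All rows together gave 44.6% higher and 37.6% lower. FARSB and FARSA, which form 1 enzyme, changed by -2.14 ± 0.04 and -1.06 ± 0.05, and CARS rose by 0.88 ± 0.05. Genes of the integrated stress response mostly rose, with 14 of 18 higher (14 higher and 1 to 3 lower under the 3 other scalings) and a median of 0.61. CHAC1, which degrades glutathione, measured 3.71, 2.5 and 1.81 FPKM in the DMSO libraries and 23.2, 24.4 and 20.9 in the OT libraries, a rise of 2.73 ± 0.16 (adjusted p = 3.5e-09). DDIT4 (REDD1), an inhibitor of mTORC1, measured 59.4, 63.2 and 65 FPKM with DMSO and 170.4, 183 and 186 with OT. PHGDH, the first enzyme of serine synthesis, rose by 1.27 ± 0.04 and DDIT3 (CHOP) by 1.22 ± 0.08. Of the amino acid transporters, 6 of 12 tested members rose and 2 fell (6 to 8 higher and 2 lower under the 3 other scalings). SLC6A9 rose most (2.02 ± 0.11), and SLC7A5, SLC1A4 and SLC7A11 by 1.06, 1.07 and 1.05, while SLC38A2 and SLC1A5, both glutamine carriers, changed by -0.54 ± 0.06 and -0.49 ± 0.05.

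Metabolic genes were mostly lower. Of the cholesterol genes, 23 of 25 fell (1 to 2 higher and 22 to 23 lower under the 3 other scalings), 16 of them at least 2-fold, with a median of -1.4. HMGCS1, an early enzyme of the mevalonate pathway, measured 57.6, 57.5 and 62.2 FPKM in the DMSO libraries and 15.8, 14.7 and 16 in the OT libraries, a change of -1.86 ± 0.05 (adjusted p = 1.4e-12), and CYP51A1 changed by -1.9 ± 0.06. TM7SF2, a sterol reductase, was the exception and rose from 12, 14.5 and 13.5 to 79.8, 88.3 and 92.3 FPKM. SCD, the main stearoyl-CoA desaturase, fell by 2.58 ± 0.08 while SCD5, its paralog, rose by 2.01 ± 0.07. ELOVL6 and FASN changed by -2.22 ± 0.05 and -1.52 ± 0.09, and over the fatty acid list 5 of 19 tested members rose and 13 fell (5 higher and 12 to 14 lower under the 3 other scalings).

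The summed level of the glycolysis genes was 10126 to 10993 FPKM with DMSO and 4975 to 5091 with OT. Of 24 tested, 19 fell and 2 rose (2 to 5 higher and 17 to 19 lower under the 3 other scalings). LDHA, lactate dehydrogenase, measured 596, 609 and 586 FPKM in the DMSO libraries and 157, 153 and 157 in the OT libraries, a change of -1.93 ± 0.04 (adjusted p = 1.3e-13). ENO1 measured 1369, 1447 and 1322 FPKM with DMSO and 499.8, 524 and 512 with OT. PDK2, a kinase that holds back pyruvate dehydrogenase, rose by 1.29 ± 0.14. Nuclear-encoded genes of oxidative phosphorylation changed less, with 30 of 34 lower and none higher, and a median of -0.44. That list is sensitive to scaling (0 to 3 higher and 24 to 31 lower under the 3 other scalings). CYCS (cytochrome c) changed most, from 129.7, 135 and 143 to 28.9, 28.5 and 34.1 FPKM. Of the heat shock chaperones, HSPE1 and HSPD1, the mitochondrial pair, changed by -1.57 ± 0.08 and -1.47 ± 0.07, and the small chaperones HSPB1 and CRYAB rose by 1.78 ± 0.08 and 2.34 ± 0.14. HSPB1 measured 436, 473 and 442 FPKM with DMSO and 1311, 1673 and 1689 with OT, so its OT mean was 3.46 times the DMSO mean. In that list 2 of 13 tested members rose and 9 fell (2 to 3 higher and 9 to 11 lower under the 3 other scalings). LDHA, ENO1, HSPD1 and HSPE1 have processed pseudogenes, and how shared reads were assigned is not stated, so their levels are uncertain to that extent.

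**Figure D3:**
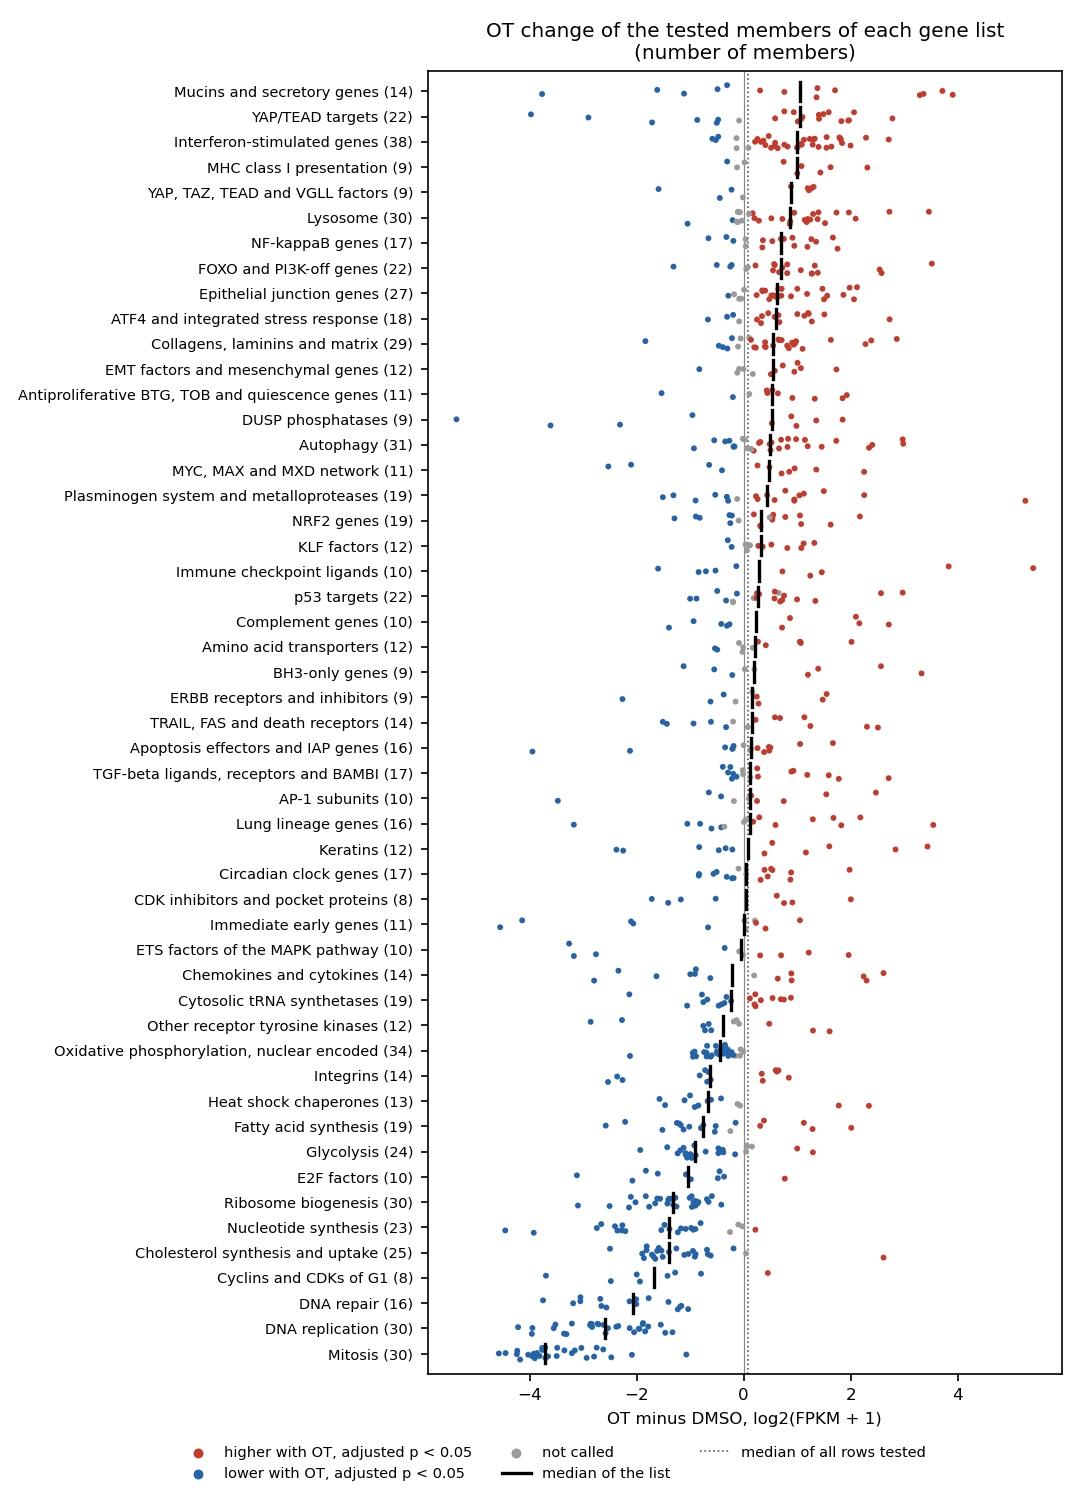
Each point is 1 tested member of a gene list, placed by OT minus DMSO on the log2(FPKM + 1) scale. Red points were higher and blue points lower at an adjusted p under 0.05, grey points were not called, and black bars mark list medians. Lists with at least 8 tested members are ordered by median, from mitosis (-3.71) at the bottom to mucins and secretory genes (1.06) at the top, and the dotted line is the median of all rows (0.07).

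Genes that FOXO factors or loss of PI3K signalling are known to raise were higher in 16 of 22 cases and lower in 4 (15 to 17 higher and 2 to 4 lower under the 3 other scalings), with a median of 0.69. PIK3IP1, a membrane inhibitor of PI3K, measured 4.2, 3.79 and 5.03 FPKM in the DMSO libraries and 58.9, 62.5 and 58.5 in the OT libraries, a rise of 3.52 ± 0.07 (adjusted p = 1.5e-13). FOXO4 measured 0.927, 0.813 and 0.823 FPKM with DMSO and 11.4, 9.36 and 9.56 with OT and KLHL24 1.56, 1.28 and 1.49 FPKM with DMSO and 14.4, 12.9 and 12.3 with OT. CCNG2, an unusual cyclin linked to cell cycle exit, rose by 1.39 ± 0.06 and TXNIP, which limits glucose uptake, by 1.28 ± 0.04. TRIB2, a pseudokinase, fell by 1.31 ± 0.07. KLF9 (0.82 ± 0.08) was one of 7 KLF genes that rose of 12 (7 to 10 higher and 0 to 2 lower under the 3 other scalings), led by KLF11 (1.32 ± 0.05).

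Lysosome genes were higher in 21 of 30 cases and lower in 2 (19 to 26 higher and 1 to 4 lower under the 3 other scalings), and their summed level was 2759 to 2869 FPKM with DMSO and 4249.8 to 4641 with OT. CTSS, a cathepsin of antigen processing, measured 1.21, 1.11 and 1.36 FPKM in the DMSO libraries and 21, 24.2 and 25.8 in the OT libraries, a rise of 3.46 ± 0.08 (adjusted p = 2.8e-13). CTSF rose by 2.73 ± 0.07, CTSH by 1.97 ± 0.06 and GRN (progranulin) by 2.09 ± 0.05. GLA, an alpha-galactosidase, fell by 1.05 ± 0.06. The letters TCACGTGA, the core of the element through which TFEB and TFE3 act on lysosomal genes, contain the E-box named above and were in 5 of 27 windows (18.5%, 5 of 19 genes), against 0.98% of all 35116 windows. A pair of these promoters follows, with the element in capitals.
CTSA (chr20:45891284-45891334, plus strand): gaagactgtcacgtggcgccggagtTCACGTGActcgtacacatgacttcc
GAA (chr17:80101479-80101580, plus strand): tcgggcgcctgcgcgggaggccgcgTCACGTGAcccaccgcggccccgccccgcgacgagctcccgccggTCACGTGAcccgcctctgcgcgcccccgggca
CTSA, a protective carboxypeptidase, measured 26.9, 27.5 and 26.7 FPKM with DMSO and 72.4, 72.7 and 73.7 with OT, and GAA, the acid alpha-glucosidase, 8.43, 9.21 and 9.1 FPKM with DMSO and 34.2, 31.7 and 30.3 with OT. Both rose, by 1.4 ± 0.04 and 1.74 ± 0.06. Autophagy genes were higher in 19 of 31 cases (18 to 24 higher and 2 to 7 lower under the 3 other scalings). GABARAPL1, an ATG8 family member of the autophagosome membrane, measured 8.3, 7.8 and 7.93 FPKM with DMSO and 45.5, 46.4 and 48.2 with OT, a rise of 2.41 ± 0.04 (adjusted p = 8.0e-14). TP53INP1 and TP53INP2 rose by 2.97 ± 0.08 and 2.99 ± 0.07, MAP1LC3A by 2.35 ± 0.15, and the initiating kinase ULK1 by 1.73 ± 0.06. ATG16L1 fell by 0.93 ± 0.05.

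The apoptosis genes moved on both sides. BMF, a BH3-only protein that neutralises BCL2 relatives, measured 8.89, 8.96 and 9.52 FPKM in the DMSO libraries and 112, 97.7 and 92.8 in the OT libraries, a rise of 3.33 ± 0.06 (adjusted p = 1.1e-13). BCL2L11 (BIM), the BH3-only gene best known for ERK-dependent control, measured 1.82, 2.15 and 1.88 FPKM with DMSO and 6.84, 5.38 and 5.22 with OT, a rise of 1.2 ± 0.09 (adjusted p = 3.6e-08). BBC3 (PUMA) measured 4.82, 5.07 and 6.62 FPKM with DMSO and 28, 40.9 and 45.1 with OT and BIK changed by 1.39 ± 0.16. None of these OT values overlapped DMSO, and OT lay above DMSO without overlap in 44.0% of all rows. BID fell by 1.12 ± 0.05. Of 9 BH3-only genes 4 rose and 3 fell (4 to 6 higher and 2 to 3 lower under the 3 other scalings). Those shares are near the 44.6% higher and 37.6% lower of all rows.

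Of the survival genes, BCL2L1 (BCL-XL) measured 80.6, 80.9 and 78.5 FPKM with DMSO and 42.8, 43.4 and 52.6 with OT, a change of -0.78 ± 0.07 (adjusted p = 4.0e-07). MCL1, whose protein is short-lived, measured 94.3, 89.6 and 94.5 FPKM with DMSO and 109.7, 107 and 111 with OT, a small rise of 0.23 ± 0.04 (adjusted p = 1.5e-04). BIRC5 (survivin), which is also a mitotic protein, fell by 3.95 ± 0.08, whereas BIRC3, an NF-kappaB target, rose by 1.67 ± 0.09. TNFSF10 (TRAIL), a death ligand, measured 29.6, 26.5 and 31.3 FPKM in the DMSO libraries and 159.7, 170.3 and 182 in the OT libraries, a rise of 2.51 ± 0.06 (adjusted p = 9.3e-13). Its receptor TNFRSF10A and decoy receptor TNFRSF10D changed by -1.43 ± 0.12 and -1.51 ± 0.13. DAPK2, a calmodulin-regulated death kinase, rose from 3.26, 3.63 and 3.67 to 20.8, 22.3 and 21 FPKM. Of 22 p53 targets 12 rose and 5 fell (10 to 15 higher and 3 to 5 lower under the 3 other scalings); AEN fell by 1.0 ± 0.19 and TP53I3 rose by 1.34 ± 0.07.

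Interferon-stimulated genes rose in 32 of 38 cases (31 to 33 higher and 3 to 4 lower under the 3 other scalings), 19 of them at least 2-fold, against 12.3% of all rows, and the list's median was 1.01. These genes answer transcription factors that interferons activate, STAT2 and IRF9 among them. MX2, an antiviral GTPase, measured 1.43, 1.36 and 1.37 FPKM in the DMSO libraries and 15.4, 14.5 and 14.1 in the OT libraries, a rise of 2.71 ± 0.06 (adjusted p = 4.6e-13). MX1 measured 3.3, 3.38 and 3.2 FPKM with DMSO and 15.9, 16.9 and 15.7 with OT, IFI27 35.9, 59 and 36.2 FPKM with DMSO and 185, 210.0 and 244 with OT and HERC6 changed by 1.84 ± 0.06. STAT2 and IRF9 rose by 1.81 ± 0.07 and 1.55 ± 0.06. USP18, an inhibitor of the receptor, fell by 0.58 ± 0.09, as did OAS3 (-0.52 ± 0.08) and HERC5 (-0.47 ± 0.09), while ISG15 was not called (-0.13 ± 0.08, adjusted p = 0.13). ISG15 measured 238, 249 and 240.5 FPKM with DMSO and 187, 244 and 236 with OT, and without the second OT library it is called lower, at -0.20 (adjusted p = 0.028).

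The interferon-stimulated response element was searched on both strands as GAAA, any 2 bases and GAAA and was in 24 of 39 windows (61.5%, 20 of 29 genes), against 3.57% of all 35116 windows. These promoters carry it in capitals at least once before the start.
IFI27 (chr14:94110603-94110675, plus strand): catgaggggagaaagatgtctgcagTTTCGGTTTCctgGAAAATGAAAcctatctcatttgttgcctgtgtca
IFI6 (chr1:27672251-27672373, minus strand): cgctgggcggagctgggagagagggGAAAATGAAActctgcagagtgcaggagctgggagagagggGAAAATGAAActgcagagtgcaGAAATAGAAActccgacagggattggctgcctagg
IFIT1 (chr10:89392482-89392554, plus strand): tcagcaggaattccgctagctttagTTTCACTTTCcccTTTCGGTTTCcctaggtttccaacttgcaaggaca
IFI27 rose by 2.29 ± 0.16, IFI6 by 1.0 ± 0.14 and IFIT1, which binds foreign RNA, by 0.59 ± 0.08. The genes of the interferons themselves were looked at after these values had been seen. IFNA1, IFNG, IFNK, IFNL2 and IFNL3 were listed at 0 in all 6 libraries. IFNB1 was above 0 in 1 OT library, at 0.193 FPKM, and IFNL1 reached at most 0.0942. IFNE, an epithelial interferon, fell from 3.21, 2.58 and 3.63 to 1.16, 1.32 and 1.06 FPKM. TLR3, a sensor of double-stranded RNA, rose from 0.0428, 0.105 and 0.0843 to 4.92, 4.67 and 4.66 FPKM.

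Of the 9 class I presentation genes that could be measured, 6 rose and 1 fell (6 to 7 higher and 0 to 2 lower under the 3 other scalings). CD74, the invariant chain of class II molecules, is not among those 9. It measured 52.4, 52.7 and 52.7 FPKM in the DMSO libraries and 212, 205 and 211 in the OT libraries, a rise of 1.97 ± 0.04 (adjusted p = 1.0e-13). PSMB10, an immunoproteasome subunit, measured 26, 29.6 and 23.5 FPKM with DMSO and 115, 146 and 145 with OT, NLRC5, the regulator of class I genes, changed by 1.63 ± 0.10 and ERAP1 by 1.44 ± 0.07. B2M rose by 1.0 ± 0.07. CALR, a chaperone of class I assembly, fell by 0.31 ± 0.04, a call that is lost when libraries are scaled to the same sum. The other 11 rows of the class I list, HLA-B, HLA-C, TAP1 and TAP2 among them, were listed at exactly 0 in all 24 libraries, as were 8 rows of the class II list. Rows outside antigen presentation such as IER3, DDR1, VARS, NEU1 and HSPA1A were listed at 0 in the same way, so these rows carry no measurement.

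Among checkpoint ligands, CD274 (PD-L1) moved opposite to VTCN1. It measured 25.2, 26.3 and 25.9 FPKM in the DMSO libraries and 8.14, 7.27 and 8.12 in the OT libraries, a change of -1.6 ± 0.06 (adjusted p = 3.1e-11). LGALS9 measured 3.19, 3.07 and 2.99 FPKM with DMSO and 53.8, 61.2 and 56.8 with OT and TNFRSF14 changed by 1.46 ± 0.08. The inflammatory cytokines CSF2 and CXCL8, both AP-1 targets, fell from 7.56, 10.1 and 8.27 and 5.43, 4.44 and 5.38 FPKM to 0.564, 0.385 and 0.212 and 0.163, 0.186 and 0.245. CXCL11, an interferon-induced chemokine, measured 0.0435, 0 and 0.0428 FPKM with DMSO and 4.24, 4.19 and 3.77 with OT. IL32 rose by 2.62 ± 0.09. Complement components C1R and SERPING1 rose by 2.71 ± 0.07 and 2.16 ± 0.09, and C4BPB fell by 1.4 ± 0.12.

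NF-kappaB genes were higher in 12 of 17 cases (12 to 13 higher and 1 to 3 lower under the 3 other scalings), with ICAM1 from 6.21, 5.53 and 5.27 to 23.5, 21.4 and 19.7 FPKM. NFKBIZ fell (-0.66 ± 0.10). The letters GGGA, any 1 base and TTTCC, on either strand, were in 7 of 27 windows (25.9%, 7 of 15 genes), against 0.558% of all 35116 windows. A pair of promoters with the same match, in capitals, are these.
NFKB2 (chr10:102395659-102395704, plus strand): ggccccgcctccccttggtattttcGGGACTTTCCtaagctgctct
TNIP1 (chr5:151081042-151081101, minus strand): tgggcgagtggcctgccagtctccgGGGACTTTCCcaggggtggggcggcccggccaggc
NFKB2 measured 10.2, 11.1 and 10 FPKM with DMSO and 29, 28.9 and 27 with OT, and TNIP1, an inhibitor of the same pathway, 44.2, 47.8 and 43.2 FPKM with DMSO and 106, 110.1 and 113 with OT.

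Epithelial junction genes were higher in 22 of 27 cases and lower in 1 (22 to 24 higher and 0 to 2 lower under the 3 other scalings), with a median of 0.63. The tight junction genes TJP3, CGN and OCLN rose by 2.12 ± 0.06, 2.06 ± 0.08 and 1.98 ± 0.06. OCLN (occludin) measured 4.46, 4.54 and 4.52 FPKM in the DMSO libraries and 20.2, 20.2 and 21.9 in the OT libraries. GRHL1, a transcription factor of epithelial barriers, rose from 0.661, 0.541 and 0.738 to 5.14, 4.79 and 5.06 FPKM and CDH1 (E-cadherin) by 0.71 ± 0.05. The plakophilin PKP3 fell by 0.29 ± 0.04, a call that is lost when libraries are scaled to the same sum.

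The keratins were split. KRT18 measured 842, 895 and 845 FPKM in the DMSO libraries and 175, 179 and 186 in the OT libraries, a change of -2.25 ± 0.05 (adjusted p = 1.8e-13), and its partner KRT8 changed by -0.83 ± 0.05. KRT16, a keratin of stratified and wounded epithelium, rose from 1.46, 1.4 and 1.26 to 23.2, 26.1 and 24.9 FPKM and KRT4 by 2.84 ± 0.09, while KRT75 fell by 2.38 ± 0.07. KRT8 and KRT18 have many processed pseudogenes, and KRT16 near-identical copies, so shared reads make their levels uncertain. In total 6 of 12 tested members rose and 6 fell (6 higher and 5 to 6 lower under the 3 other scalings), against 44.6% higher and 37.6% lower of all rows. The summed level of the keratin list was 5781 to 6129 FPKM with DMSO and 4159 to 4436 with OT.

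Individual secretory and lung genes moved in both directions. MUC1 measured 8.41, 6.94 and 7.71 FPKM in the DMSO libraries and 77.8, 93.2 and 94.5 in the OT libraries, a rise of 3.36 ± 0.08 (adjusted p = 3.6e-13). MUC20 measured 14.5, 15 and 14.2 FPKM with DMSO and 246, 236 and 219 with OT and SLPI changed by 3.72 ± 0.18, whereas SPDEF, a transcription factor of mucus-producing cells, fell from 53.1, 54.9 and 52.6 to 3.25, 3.22 and 2.58 FPKM. NKX2-1 rose by 1.29 ± 0.05 (adjusted p = 3.9e-11). SLC34A2, a phosphate transporter of alveolar type 2 cells, rose from 8.84, 8.08 and 8.77 to 52.1, 39.3 and 37.1 FPKM, and the type 2 products SFTPD and NAPSA from low levels by 1.83 ± 0.10 and 1.68 ± 0.13. HOPX, often used as a marker of alveolar type 1 cells, measured 1.62, 1.39 and 1.91 FPKM with DMSO and 24.6, 32.1 and 33.3 with OT. Over the lung list 8 of 16 tested members rose and 5 fell (7 to 9 higher and 5 lower under the 3 other scalings), and 13 of its 29 rows stayed below the filter. The list's median was 0.11, against 0.07 for all rows, of which 44.6% rose and 37.6% fell.

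Matrix genes mostly rose, with 21 of 29 higher (20 to 22 higher and 3 to 5 lower under the 3 other scalings). COL1A2, a chain of type I collagen, measured 1.11, 1.17 and 1.5 FPKM in the DMSO libraries and 14.8, 16 and 15.5 in the OT libraries, and its partner chain COL1A1 changed by 0.67 ± 0.06. LAMB2 rose by 2.39 ± 0.07 and the crosslinking enzyme LOX by 2.28 ± 0.07, while TNC (tenascin C) fell by 1.84 ± 0.10. Integrins fell in 8 of 14 cases and rose in 6 (the same counts under the 3 other scalings), led by ITGB5 (-2.54 ± 0.06), ITGA6 (-2.36 ± 0.05) and ITGA2 (-2.26 ± 0.09). MMP14 rose by 2.26 ± 0.04 and PLAT, the tissue plasminogen activator, fell by 1.51 ± 0.08. TGFBI, a secreted matrix protein induced by TGF-beta, measured 1128, 1170.0 and 1159 FPKM with DMSO and 2243, 2379 and 2338 with OT. SPARC rose by 1.74 ± 0.04 and VIM (vimentin) by 0.51 ± 0.05. TWIST2 fell by 0.83 ± 0.12, and SNAI2 measured 13.4, 14.8 and 14.6 FPKM with DMSO and 12.6, 13.2 and 13.4 with OT, which was not called (-0.12 ± 0.08, adjusted p = 0.16).

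YAP1 measured 18.5, 16.5 and 19.7 FPKM in the DMSO libraries and 16.9, 13.9 and 15.6 in the OT libraries, a difference of -0.23 ± 0.08 (adjusted p = 0.018) with 1 OT library inside the DMSO range. That call is lost without the first DMSO library, the third DMSO library or the second OT library, at -0.21, -0.17 and -0.16, and under the same FPKM sum, at -0.01. WWTR1 (TAZ), its paralog, fell from 29.6, 30.4 and 33.7 to 10, 9.33 and 9.75 FPKM, and TEAD2 and TEAD3 rose by 1.31 ± 0.06 and 1.22 ± 0.10. Of 22 genes usually counted as YAP and TEAD targets, 15 rose and 6 fell (15 higher and 6 to 7 lower under the 3 other scalings), with a median of 1.05. CTGF measured 24.3, 23.5 and 24.7 FPKM in the DMSO libraries and 43, 48.3 and 50.6 in the OT libraries, a rise of 0.94 ± 0.06 (adjusted p = 1.7e-08). CYR61 measured 113, 114 and 109 FPKM with DMSO and 159, 178 and 171 with OT, a rise of 0.59 ± 0.05. CCDC80 and AMOTL1 rose by 2.78 ± 0.07 and 2.06 ± 0.08. NT5E (CD73) measured 104, 102 and 107 FPKM with DMSO and 6.5, 5.4 and 5.23 with OT, and F3 (tissue factor) 132, 127 and 134 FPKM with DMSO and 18.2, 14.9 and 17 with OT, the 2 largest falls of the list (-3.98 ± 0.07 and -2.9 ± 0.10). The TEAD letters GGAATG, on either strand, were in 9 of 20 windows (45%, 9 of 17 genes), against 14% of all 35116 windows, and are shown in capitals for 2 members.
ANKRD1 (chr10:90921185-90921332, minus strand): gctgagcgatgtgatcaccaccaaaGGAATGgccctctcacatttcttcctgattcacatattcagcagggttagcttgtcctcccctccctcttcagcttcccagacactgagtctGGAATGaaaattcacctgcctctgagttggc
AMOTL2 (chr3:134374486-134374541, minus strand): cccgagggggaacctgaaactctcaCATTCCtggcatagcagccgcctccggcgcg
ANKRD1, a nuclear cofactor, changed by 1.49 ± 0.08 and AMOTL2, a feedback inhibitor of YAP, by 1.83 ± 0.07.

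Of the TGF-beta family signalling genes, 8 of 17 were higher and 6 lower (8 to 10 higher and 0 to 6 lower under the 3 other scalings). Those shares are near the 44.6% higher and 37.6% lower of all rows. BAMBI, a decoy receptor, measured 3.84, 4.11 and 3.54 FPKM with DMSO and 28.8, 32.4 and 30.7 with OT, INHBB changed by 1.78 ± 0.06 and TGFB2 by 1.59 ± 0.06. ID2 and ID3, inhibitors of helix-loop-helix factors, rose by 1.37 ± 0.10 and 1.29 ± 0.08. ID1 fell by 0.26 ± 0.07 (adjusted p = 0.0024), and by 0.17 without the first OT library, and its call was lost under the same FPKM sum (-0.04). HMOX1, a haem-degrading enzyme of the NRF2 list, measured 5.18, 6.52 and 6.43 FPKM with DMSO and 29, 30.7 and 32.4 with OT, and TXN (thioredoxin) fell by 1.29 ± 0.08. Over the NRF2 list 11 of 19 tested members rose and 6 fell (11 to 13 higher and 3 to 6 lower under the 3 other scalings). Of the clock genes CRY1 fell (-0.84 ± 0.09).

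The response was then set against that of PC9 CTRL cells by testing the difference itself in a fit of all 24 libraries, over 11330 rows that passed the filter in both lines. The change was more positive in HCC4006 in 4289 rows (37.9%) and more negative in 3160 (27.9%), 65.7% in all. All 30 mitosis genes tested in both lines fell further in HCC4006, as did 28 of 30 replication genes. CDK1 changed by -4.58 in HCC4006 and -1.65 in PC9, a difference of -2.92 ± 0.07 (adjusted p = 3.5e-18). UBE2C changed by -4.45 and -1.16. DUSP6 changed by -5.37 and -2.44 and CCND1 by -3.7 and -1.22, and ETV5 by -3.17 and -3.13, a difference of -0.04 ± 0.10 (adjusted p = 0.74). A fall on the log2(FPKM + 1) scale is limited by the DMSO level, and PC9 levels are not given here. By itself, a smaller fall in PC9 is therefore not a smaller relative loss of the message.

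Cholesterol genes changed more negatively in HCC4006 in 22 of 24 cases. CYP51A1 changed by -1.9 in HCC4006 and by -0.02 in PC9, a difference of -1.88 ± 0.07. Oxidative phosphorylation genes were more negative in 31 of 34 cases. In the other direction, 20 of 33 interferon-stimulated genes changed more positively in HCC4006 and 4 more negatively. MX2 changed by 2.71 and 0.51, and LGALS9 by 3.83 and 0.40, a difference of 3.44 ± 0.11. Junction genes were more positive in 18 of 27 cases and more negative in 3, OCLN with 1.98 against 0.47.

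Among 223 of the genes taken by the naming rule and tested in both lines, 18 were called in opposite directions with the difference itself called. That share was not counted over all rows tested in both lines. Many of the 223 were named for large changes in these same HCC4006 libraries, so it describes the named genes only. MET fell in HCC4006 and rose in PC9 (0.68), a difference of -2.95 ± 0.06 (adjusted p = 8.0e-19). F3 changed by -2.9 and 0.58, and KRT18 by -2.25 and 0.20. CHAC1 rose by 2.73 in HCC4006 and changed by -0.50 in PC9, and PHGDH by 1.27 and -0.91. CTGF and CYR61 rose in both lines, by 0.94 and 0.59 against 0.99 and 0.65, with differences of -0.05 ± 0.11 and -0.06 ± 0.08 (adjusted p = 0.7 and 0.48).

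Within HCC4006, the change in CTRL cells was compared with that in YAP1 KO cells, which shared drug, dose and time. It was more positive in CTRL in 1079 rows (8.53%) and more negative in 1282 (10.1%), 18.7% in all. YAP and TEAD targets were more positive in CTRL in 16 of 22 cases and in none more negative. CTGF rose in CTRL (0.94) and fell in YAP1 KO (-1.87), a difference of 2.8 ± 0.09 (adjusted p = 2.5e-09). CYR61 changed by 0.59 and -1.51, and TGFB2 by 1.59 and 0.03. Matrix genes were more positive in CTRL in 16 of 29 cases and more negative in 1, and integrins were more positive in 7 of 14.

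For the ERK feedback genes, DUSP6 differed between the genotypes by 0.02 ± 0.21 and ETV4 by 0.09 ± 0.15, with adjusted p of 0.96 and 0.74. Both were below 1 FPKM in every OT library of CTRL, where a change on this scale depends mainly on the DMSO level. Levels in YAP1 KO are not given here. Other genes of the DUSP, Sprouty and SPRED, and ETS lists did differ. Of 9 DUSP phosphatases 3 differed with a more positive change in CTRL and 1 with a more negative one, of 5 Sprouty and SPRED genes 1 and 0, and of 10 ETS factors 2 and 2. DUSP4 changed by -3.61 in CTRL and -4.12 in YAP1 KO, a difference of 0.51 ± 0.12 (adjusted p = 0.0095), and DUSP1 rose by 1.85 and 0.96 (difference 0.89 ± 0.10, adjusted p = 6.7e-05). The mitosis genes fell less in CTRL than in YAP1 KO in 21 of 30 cases and further in 1, CDK1 changing by -4.58 and -5.34. Interferon-stimulated genes changed less positively in CTRL in 17 of 38 cases and in none more, and genes of the integrated stress response changed less positively in 11 of 18 and more in 1. Of the apoptosis genes, BMF rose by 3.33 in CTRL and 4.09 in YAP1 KO, a difference of -0.76 ± 0.09 (adjusted p = 8.9e-05). BCL2L11 rose by 1.2 and 1.75 (difference -0.55 ± 0.13, adjusted p = 0.0091), and BCL2L1 changed by -0.78 and -1.49 (difference 0.71 ± 0.10). Without the first OT library of the CTRL cells, 2931 rows differed between the genotypes in place of 2361.

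**Figure D4:**
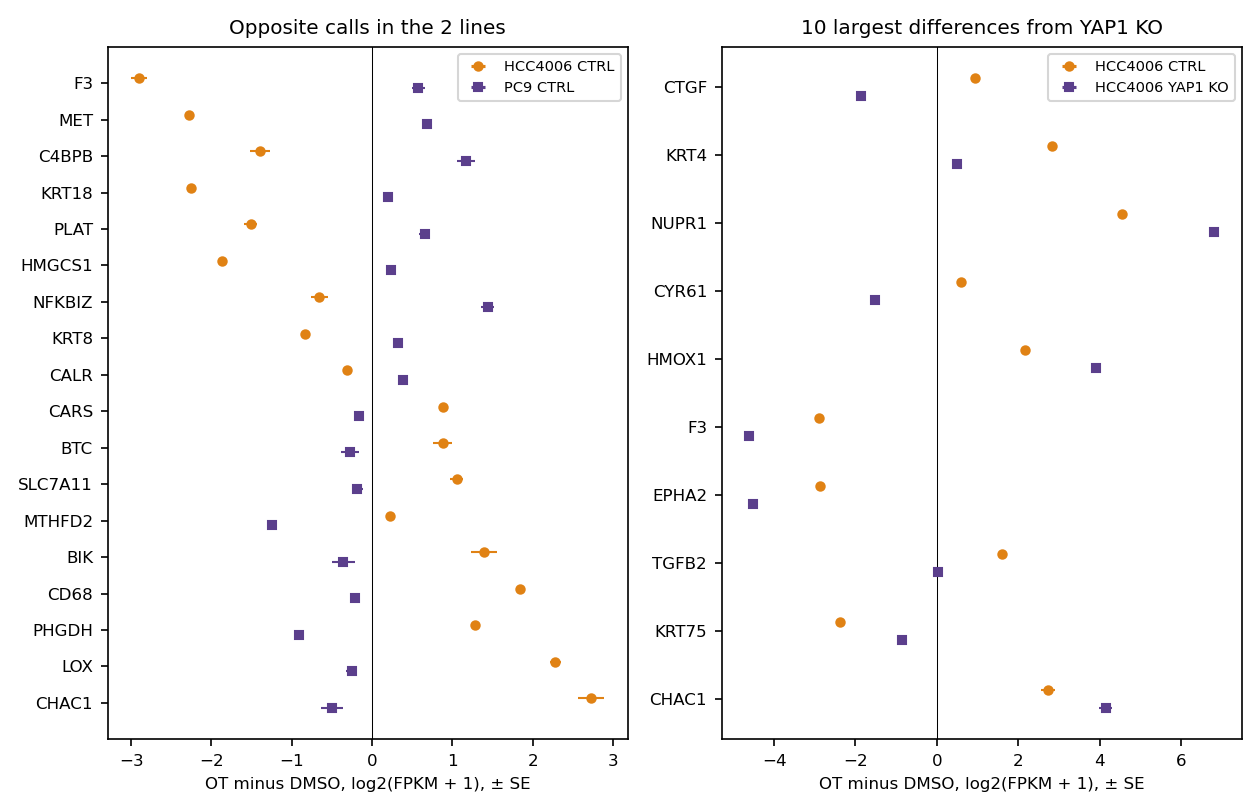
OT minus DMSO on the log2(FPKM + 1) scale, with its standard error, for HCC4006 CTRL (circles) beside PC9 CTRL (squares, left) and HCC4006 YAP1 KO (squares, right). The left panel holds the 18 named genes called in opposite directions in the 2 lines, from F3 to CHAC1. The right panel holds the 10 named genes with the largest differences from YAP1 KO, from CTGF (0.94 against -1.87) to CHAC1 (2.73 against 4.14).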

How the data were processed

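The authors deposited 1 table of FPKM, with 24 library columns and 25365 gene rows named by symbol. Per the labels' protocols, cells were lysed in TRIzol and a stranded kit turned messenger RNA into libraries. STAR (2.5.1b), Cufflinks (2.2.1), DESeq2 (1.10.1) and the builds hg19 and GRCh37 are listed in the submitters' processing notes, with no role or order. Absolute depth is unknown. FPKM are not counts, so the limma (3.58.1, R 4.3.3) trend test, tested on simulated data, was run on log2(FPKM + 1) over the 12 HCC4006 libraries (4 groups, 8 residual degrees of freedom), with two-sided p-values adjusted by Benjamini-Hochberg over 12646 rows and a threshold of 0.05. The difference between lines came from all 24 libraries (16 degrees).

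The members and the 60 gene lists (1053 genes, 1046 with a row) were chosen with earlier results of these data known. Named genes were the 10 highest and 10 lowest changes, up to 4 per list, the strongest against each list's majority, and a fixed set. Other genes, and those whose promoters are shown, were chosen after their values were seen. RefSeq promoter windows (GRCh38.p14) were matched by symbol and searched for 14 motifs in 9 lists. The 333 rows of short RNAs, LOC symbols and date-like symbols were tested but not named, and a few genes that the rule names are not reported here and are left out of counts of named genes. Alternatives were the scaling, pseudocount, filter, trend, the 6 libraries alone, a replicate block and leaving out each library.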

Additional observations from a re-analysis of the deposited data

Results flagged for a closer look

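The results below are named genes whose OT change in HCC4006 CTRL cells differed from that in another group by a test of the difference itself. Against PC9 CTRL, 18 of the 223 named genes tested in both lines were called in opposite directions, a share not counted over all rows. Lower in HCC4006 and higher in PC9 were F3, with a difference of -3.48 ± 0.11, MET (-2.95 ± 0.06), C4BPB (-2.56 ± 0.17), KRT18 (-2.45 ± 0.05), PLAT (-2.16 ± 0.10), HMGCS1 (-2.1 ± 0.07), NFKBIZ (-2.09 ± 0.12), KRT8 (-1.15 ± 0.05) and CALR (-0.69 ± 0.05). Higher in HCC4006 and lower in PC9 were CARS (1.04 ± 0.06), BTC (1.15 ± 0.16), SLC7A11 (1.24 ± 0.09), MTHFD2 (1.47 ± 0.06), BIK (1.75 ± 0.20), CD68 (2.05 ± 0.06), PHGDH (2.18 ± 0.05), LOX (2.53 ± 0.10) and CHAC1 (3.23 ± 0.20). The largest adjusted p among these 18 differences was 1.9e-06, for BTC.

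Against HCC4006 YAP1 KO, the 10 largest differences among the named genes were those of CTGF (2.8 ± 0.09), KRT4 (2.35 ± 0.13), NUPR1 (-2.26 ± 0.15), CYR61 (2.1 ± 0.06), HMOX1 (-1.74 ± 0.10), F3 (1.71 ± 0.14), EPHA2 (1.66 ± 0.08), TGFB2 (1.56 ± 0.08), KRT75 (-1.51 ± 0.10) and CHAC1 (-1.41 ± 0.23). Of 256 named genes with a tested row, the change differed between the genotypes in 118, against 18.7% of all rows. Many of these genes were named for large changes in the same CTRL libraries, so the shares are not alike. Of the 118, 3 were called in opposite directions in CTRL and YAP1 KO. How many of all rows were so called was not counted.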

How the results depend on the processing

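Counts of genes called higher or lower stayed within 1.5 times the reported ones under the alternatives run, except that 3584 rows were higher when at least 5 FPKM was required, which leaves 8836 rows to test and 3867 lower. With each library at the same FPKM sum 6789 rows were higher and 3553 lower (65.6% of calls higher), and 5 rows were called in the opposite direction. Without the MIR1244 rows in that sum they were 6493 and 3829 (62.9%, a shift of the median by 0.15), and with median-of-ratios scaling 5328 and 5078 (51.2%, a shift of -0.05). With a pseudocount of 0.1 the at least 2-fold counts were 2229 higher and 1572 lower, and with 0.01 they were 2298 and 1596. With no filter 7259 of 18980 rows were higher and 5180 lower (58.4%). Leaving out 1 library at a time gave 5450 to 5665 higher, 4606 to 4769 lower, 1526 to 1594 at least 2-fold higher and 1228 to 1298 at least 2-fold lower. The counts that differed between lines and between genotypes were 7162 to 7501 and 1905 to 2931.

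Of the genes named, EGFR changed sign to 0.0604 and 0.0125 under the same FPKM sum with and without MIR1244 and to 0.0140 without the third OT library, and was -0.43 without the first; the cause was not tested. SNAI2 changed sign to 0.0912 and 0.0430 and ISG15 to 0.0915 and 0.0401 under the same pair of scalings. ID1 was -0.26, and -0.17 (adjusted p = 0.0014) without the first OT library. CD14 was 0.42 (adjusted p = 0.011), but 0.26 without the third DMSO library and 0.29 without the third OT library, its call lost in both cases (adjusted p = 0.055 for each). Small changes, below about the 0.19 by which the sum scaling shifts the median, depend on that choice. Some larger ones lost their call under it too. SMAD6 went from -0.39 to -0.19 (adjusted p = 0.052) and CALR from -0.31 to -0.08 (adjusted p = 0.053). Absolute depth is not known, so no limit for rows listed at 0 can be given.

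Deviations of same-numbered DMSO and OT libraries correlated at 0.0185, 0.210 and 0.191, against -0.280 to 0.0935 for the other pairs. The values for replicates 2 and 3 lay above those of all other pairs, and the value for replicate 1 lay inside that range. So few values do not decide whether the replicate numbers pair the samples. With the number as a replicate block 5656 rows were higher and 4767 lower, 1551 and 1272 of them at least 2-fold.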

Other observations

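CLU (clusterin), an extracellular chaperone, measured 4.29, 3.51 and 3.95 FPKM in the DMSO libraries and 16.1, 23.1 and 21.5 in the OT libraries, a change of 2.1 ± 0.11. AKR1C3, an aldo-keto reductase, went from 2.54, 2.08 and 3.13 to 9.46, 11.4 and 9.25 FPKM, and TKT (transketolase) from 135, 140.1 and 136 to 296, 285 and 288. CASP10, an initiator caspase, rose by 1.06 ± 0.06, and BCL2L12 changed by -1.58 ± 0.09. VGLL1, a TEAD cofactor that competes with YAP, was close to 0 with DMSO (0, 0.0589 and 0.118 FPKM) and measured 1.5, 1.27 and 1.94 with OT. The clock genes CRY2 and DBP rose by 0.89 ± 0.09 and 0.88 ± 0.09, and in the clock list 8 of 17 tested members rose and 7 fell (8 higher and 4 to 7 lower under the 3 other scalings). In the list of death receptors and ligands 7 of 14 tested members rose and 5 fell (7 to 8 higher and 4 to 5 lower under the 3 other scalings), and in that of caspases and IAP genes 7 of 16 tested members rose and 5 fell (7 to 10 higher and 3 to 5 lower under the 3 other scalings). The shares of these lists are near the 44.6% higher and 37.6% lower of all rows.

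The atypical E2F factors were lower and the pocket proteins were split. E2F7 and E2F8, repressors of the E2F program, changed by -2.08 ± 0.10 and -1.83 ± 0.09, and RBL1 (p107) by -1.41 ± 0.08. RB1 also fell (-0.52 ± 0.06, adjusted p = 5.9e-06), whereas RBL2 (p130) rose (0.62 ± 0.06, adjusted p = 2.5e-07). LIN9, a core subunit of the MuvB complex that reads the CHR element, measured 6.94, 6.9 and 7.81 FPKM with DMSO and 1.73, 2.12 and 1.66 with OT. Of the plasminogen system and metalloproteases 12 of 19 tested members rose and 6 fell (12 higher and 4 to 7 lower under the 3 other scalings), MMP13 rising from 0.338, 0.402 and 0.475 to 2.85, 2.7 and 3.38 FPKM. Among cytokines and chemokines 6 of 14 tested members rose and 7 fell (6 to 7 higher and 7 lower under the 3 other scalings), and among complement genes 5 of 10 tested members rose and 5 fell (5 higher and 3 to 5 lower under the 3 other scalings). All rows together gave 44.6% higher and 37.6% lower.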
